A study of Danio rerio with 12 samples.

Results

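The insm1b locus was described through the accessible regions within 50 kb on either side of the start of the gene. Overlapping peaks of the 12 ATAC-seq lists (1 bp or more) gave 245646 merged regions, and 30 of them lay in this window and are described here. Positions are those of the zebrafish assembly Zv9, in which insm1b spans 41579658 to 41581861 of chromosome 17, with its transcription start site (TSS) at 41579658 and the window running over 41529658 to 41629658. Each region is named by the distance of its centre from the TSS in kb, negative upstream. The 30 regions were taken from the merged set by position alone. Results of the study on these samples were already known, and it names insm1b among genes with RA-induced ATAC-seq peaks at RAR sites.

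The samples came from Tg(sox17:GFP) zebrafish embryos at the 3 somites stage, in which the sox17 promoter drives GFP in endodermal cells. RA samples and BMS493 samples were GFP+ cells of embryos that received 1 µM of either compound from the 2-cell stage onwards, DMSO samples were GFP+ cells of embryos given the solvent, and NE samples were the GFP- non-endodermal cells of embryos given DMSO. Each condition had 3 samples, and nothing in the labels says whether replicates came from separate clutches, so that tests measure only the spread between these samples. The sort rested on GFP alone, no expression was measured in these lists, and the NE samples can hold any other cell type of the embryo.

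insm1b is 1 of the zebrafish genes for insulinoma-associated 1, a zinc finger transcription factor that in mice is required for the differentiation of pancreatic endocrine cells and of neuroendocrine cells elsewhere. Retinoic acid (RA) is a signal that patterns the endoderm along its length and is needed for the specification of the pancreas. It binds RA receptors (RAR), which sit on DNA as heterodimers with RXR, recruit corepressors without ligand and exchange them for coactivators with it. BMS493 is an inverse agonist of RARs, which stabilises the binding of corepressors. In ATAC-seq, a transposase cuts DNA that is free of nucleosomes, and a pile of cut ends marks a promoter, an enhancer or another accessible element.

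Each sample had its own peak list, called without a control library. The height of a peak is its pileup, the number of extended tags at its summit, which was not scaled between samples. It was therefore turned into a percentile rank among all peaks of the same list, with 100 for the tallest peak and 0 for a region without a peak in that sample. A rank of 0 says only that no peak passed the threshold of the list, since signal under it is not known. The samples held 11056595 to 22930744 tags after removal of duplicates and 51301 to 143755 peaks, and the shortest list was that of DMSO replicate 1. A shorter list gives the same pileup another rank, so that ranks remove differences between libraries only in part. No member reached a pileup above 45, against a tallest peak of 140 to 158 in each list.

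Of the 30 regions, 14 lay upstream of the TSS, 1 across it and 15 downstream, and 5 overlapped the gene body. The single samples called 11, 11 and 17 of them in RA endoderm, 11, 14 and 14 in BMS493 endoderm, 9, 16 and 17 in DMSO endoderm, and 15, 16 and 17 in NE cells, given from the lowest to the highest. The ranges of the 4 conditions overlapped. The share of all regions called by each sample was not computed and list lengths differed, so that no difference between conditions is read from these counts. DMSO replicate 1, with the shortest list, called the fewest.

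A core of 7 regions was called in all 12 samples, at -34.80, -2.15, +0.02, +7.33, +43.52, +46.27 and +49.75 kb, where 11.6% of all 245646 regions were called in every sample. These were wide, with a median of 428 bp and a range of 332 to 578 bp, against a median of 449 bp for regions called in all 12 samples across the genome. At the other end, 8 regions were called in 1 sample only, as were 36.2% of all regions, and 5 more in 2 samples. The 13 regions called in 1 or 2 samples had a median width of 103 bp and a range of 80 to 268 bp. Of the single calls, 4 were made by NE replicate 3, the library with the fewest tags, 3 by DMSO replicate 3 and 1 by DMSO replicate 2. The 17 regions called in at least 3 samples, a level reached by 51.7% of all regions, entered the tests.

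**Figure D1:**
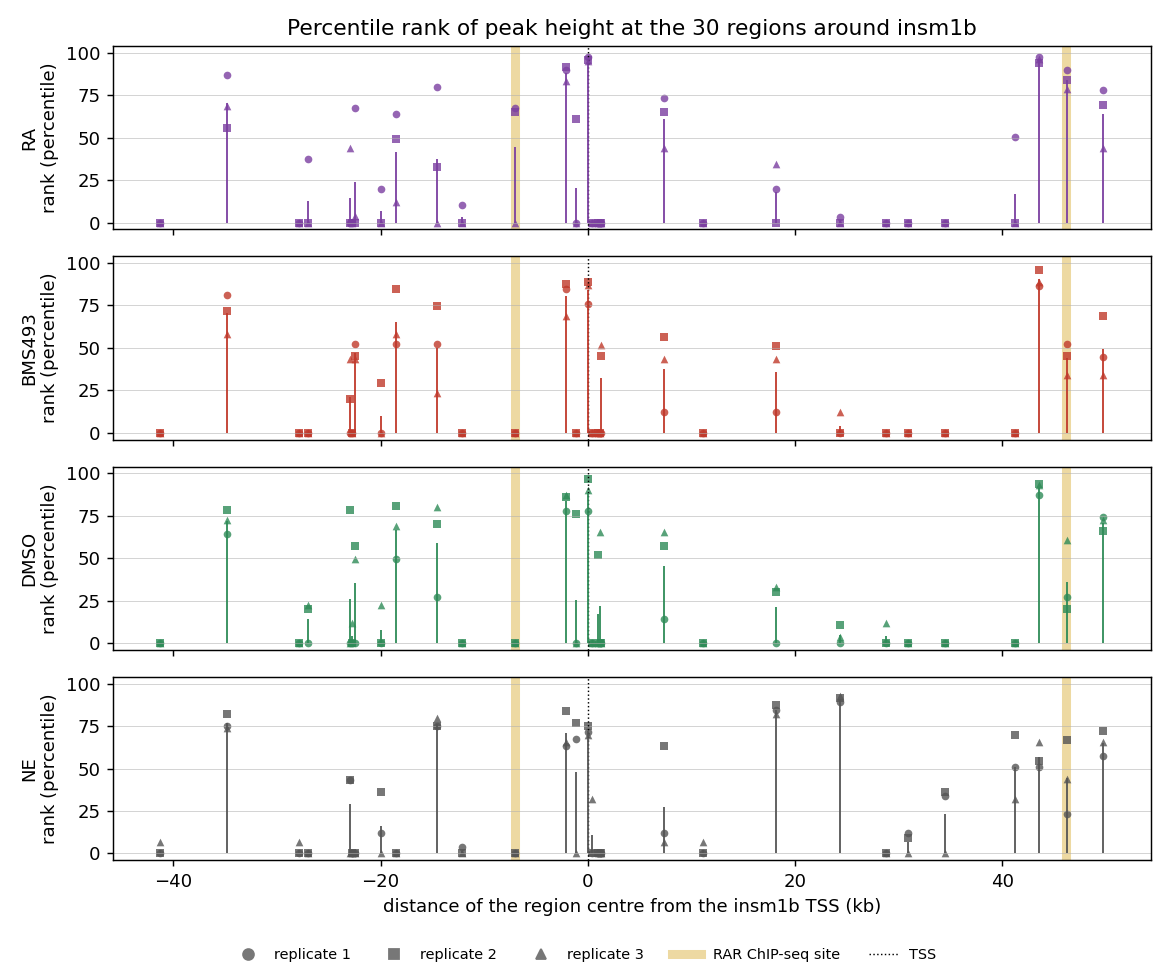
Percentile rank of peak height (y axis, 0 where no peak was called) at the 30 regions against their distance from the insm1b TSS (x axis, kb), with 1 panel per condition, 1 symbol per replicate and a vertical line up to the mean of 3 samples. Yellow bands mark the 2 RAR ChIP-seq sites, and the dotted line marks the TSS. The region at +24.34 kb stands at 89.0 to 92.5 in NE cells and at 12.3 or lower in endoderm, and that at -7.07 kb has points above 0 only in RA samples.

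The promoter of insm1b was accessible in every sample. The region across the TSS (chromosome 17, 41579390 to 41579967, 578 bp) had its summit between -135 and -55 bp from the TSS in all 12 samples. Its ranks were 97.7, 95.8 and 94.9 in RA endoderm, 75.8, 88.6 and 87.3 in BMS493 endoderm, 77.7, 96.8 and 90.4 in DMSO endoderm and 71.6, 74.8 and 70.0 in NE cells, in replicate order here and below. The corresponding pileups were 45, 34 and 29 tags in RA samples, 16, 26 and 21 in BMS493 samples, 15, 37 and 26 in DMSO samples and 15, 20 and 12 in NE samples. The RA samples lay above all BMS493 samples, while DMSO replicate 2 fell inside the RA range and DMSO replicate 1 inside the BMS493 range. All 3 NE samples lay below all 9 endodermal samples, as in 2.42% of the regions tested.

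The mean rank of the promoter region was 96.1 ± 1.44 in RA endoderm, 83.9 ± 7.05 in BMS493 endoderm, 88.3 ± 9.75 in DMSO endoderm and 72.1 ± 2.44 in NE cells (SD, n = 3 each). Differences were tested with limma on the ranks of all 127026 regions called in at least 3 samples, with Benjamini-Hochberg adjustment over them and a threshold of 0.05. RA exceeded BMS493 by 12.2 (SE 5.50, limma adjusted p = 0.5) and DMSO by 7.85 (SE 5.50, limma adjusted p = 0.93). DMSO exceeded NE by 16.1 (SE 5.50, limma adjusted p = 0.0971). None of these passed the threshold. The difference between RA and DMSO was 2.54 without DMSO replicate 1 and 12.1 without DMSO replicate 2. In another setting, the peaks of a sample together had to cover 50% of the region to count as a call. RA then exceeded DMSO by 96.1 (limma adjusted p = 0.18) and BMS493 by 37.5 (limma adjusted p = 0.892). The region was as wide as the peak of RA replicate 1 (578 bp). The DMSO peaks, 259, 287 and 275 bp wide, all fell short and were not counted, so that 96.1 was the RA mean itself. The difference between DMSO and NE passed without DMSO replicate 1, with a difference of 21.5 and a limma adjusted p of 0.0124, and this sample held the lowest DMSO rank and the shortest list. It also passed with lists of equal length (52.2, limma adjusted p = 0.00339). With the 50% cover it was -24.9 (limma adjusted p = 0.706), where no DMSO sample and, of the NE samples, only replicate 2 counted. NE replicate 2 had 2 peaks in the region, the tallest 284 bp wide. No direction is therefore read from this value.

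Inside the gene body, calls were few and sparse. The region at +0.39 kb was called in NE replicate 3 alone, at a rank of 32.3, that at +1.0 kb in DMSO replicate 2 alone, at 51.9, and that at +1.13 kb in DMSO replicate 3 alone, at 65.3. The region at +1.31 kb was called in BMS493 replicates 2 and 3, at 45.2 and 51.7. These 4 regions were 91 to 156 bp wide, and no RA sample called any of them. Regions called in 1 sample only made up 36.2% of all regions, so that no effect of RA is read from this absence.

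The nearest upstream elements differed from each other in how steadily they were called. The region at -2.15 kb (chromosome 17, 41577309 to 41577698) had ranks of 89.9, 91.4 and 83.3 in RA samples, 85.0, 87.5 and 68.8 in BMS493 samples, 77.7, 86.1 and 87.0 in DMSO samples and 63.1, 83.8 and 65.4 in NE samples. It thus ranked above 60 everywhere, and the groups overlapped. The difference between RA and BMS493 was 7.79 (SE 6.93, limma adjusted p = 0.933), and that between DMSO and NE was 12.8 (SE 6.93, limma adjusted p = 0.35). By contrast, the region at -1.18 kb was called in 1 RA, 1 DMSO and 2 NE samples, with ranks of 60.8 to 76.9 where it was called.

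Next, the regions at RAR sites were examined. The study mapped RAR binding by ChIP-seq of a myc-tagged RARaa in whole embryos given RA, and 2 of its sites lie in the window. Their positions were used here and no value of theirs. The first lies upstream of insm1b with its summit at -7.04 kb, and the second lies at +46.17 kb, in an intron of ralgapa2 by the annotation of the study. ralgapa2 codes for a catalytic subunit of a GTPase-activating complex for Ral proteins, and is the next coding gene beyond insm1b in the RefSeq order of assembly GRCz12tu, with mocs1 on the other side. Since the ChIP-seq was done on whole embryos, it does not say in which cells the sites were bound.

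The distal RAR site fell in the region at +46.27 kb (chromosome 17, 41625688 to 41626167), with which it shared 333 bp. This region was called in all 12 samples and ranked highest in the 3 RA samples. Its ranks were 89.9, 84.0 and 78.7 in RA endoderm, 52.6, 45.2 and 34.2 in BMS493 endoderm, 27.1, 20.2 and 60.9 in DMSO endoderm and 23.0, 66.5 and 43.7 in NE cells. Every RA sample lay above all 9 other samples, which held for 2.8% of the 127026 regions tested and for no other member. BMS493, DMSO and NE samples overlapped.

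In pileup, the region at +46.27 kb had 29, 21 and 17 tags in RA samples, 11, 11 and 9 in BMS493 samples, 8, 8 and 13 in DMSO samples and 8, 17 and 8 in NE samples, so that NE replicate 2, the deepest library, tied with RA replicate 3. The fold enrichment over the local background of the same sample was 8.37, 7.58 and 6.43 in RA samples, against 4.78, 4.32 and 4.53 in BMS493 samples, 4.52, 3.62 and 5.12 in DMSO samples and 4.08, 6.13 and 4.65 in NE samples. On this scale too, the RA samples did not overlap with the other conditions.

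The mean rank at +46.27 kb was 84.2 ± 5.64 in RA endoderm, 44.0 ± 9.23 in BMS493 endoderm, 36.1 ± 21.8 in DMSO endoderm and 44.4 ± 21.8 in NE cells (SD, n = 3 each). The difference between RA and DMSO was 48.1 (SE 15.7, limma adjusted p = 0.343), and that between RA and BMS493 was 40.2 (SE 15.7, limma adjusted p = 0.374). Neither passed the threshold. An exact two-sided permutation test of 3 against 3 ranks gave p = 0.1 for both, the smallest value that this design allows. Every list was then reduced to its 51301 peaks with the lowest q-values, the length of the shortest. Both differences then passed, at 62.8 against DMSO (limma adjusted p = 0.0188) and 61.1 against BMS493 (limma adjusted p = 0.0154). With such lists, 1062 and 1702 of 67438 regions tested were higher in RA than in DMSO and than in BMS493. The call at this site therefore depended on this setting. The setting changed the peaks kept, the merged regions, the ranks and the regions tested together, and their parts were not separated. BMS493 and DMSO differed by 7.94 (SE 15.7, limma adjusted p = 1.0).

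**Figure D2:**
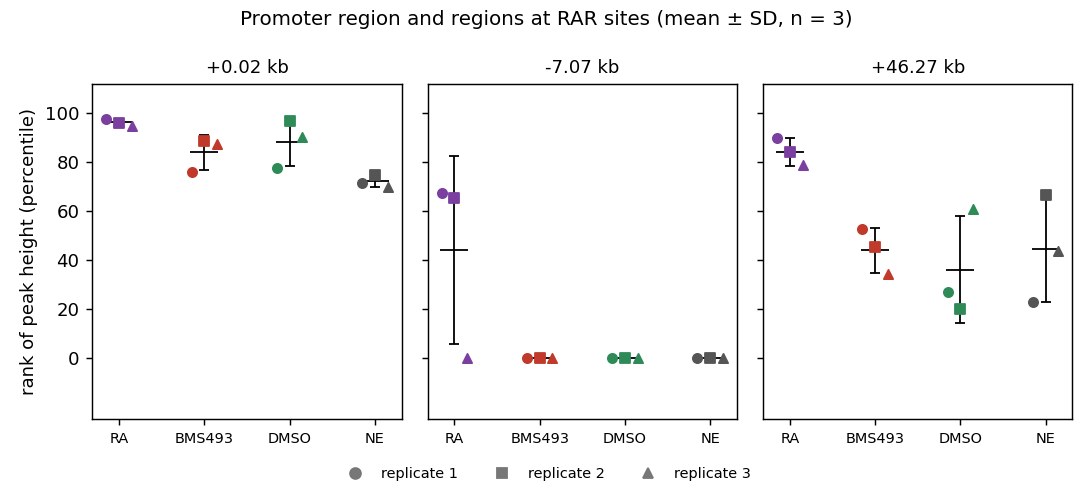
Percentile rank of peak height (y axis) in each sample at the promoter region (+0.02 kb) and at the 2 regions that overlap RAR sites (-7.07 and +46.27 kb), by condition (x axis). Symbols are replicates, and the horizontal mark and bars are the mean ± SD of 3 samples. At +46.27 kb the RA samples lie between 78.7 and 89.9, above every other sample, and at -7.07 kb 2 of the 3 RA samples are the only ones above 0.

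The position of the summit within this region varied both between and within conditions. All peaks of the RA samples had their summit 1 to 14 bp from the summit of the RAR site. The distance was 10 to 130 bp in BMS493 samples, 6 to 118 bp in DMSO samples and 1 to 181 bp in NE samples, where BMS493 replicate 3 and NE replicate 3 had 2 peaks each. The tallest NE peaks had their summits 146, 157 and 181 bp from that of the RAR site. Peaks held 17 to 29 tags in RA samples and 7 to 17 elsewhere, so that peak height and condition were not separated. These distances were looked at after the ranks were seen and were not tested, and the authors' shift of the tags by 40 bp moves every summit.

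**Figure D3:**
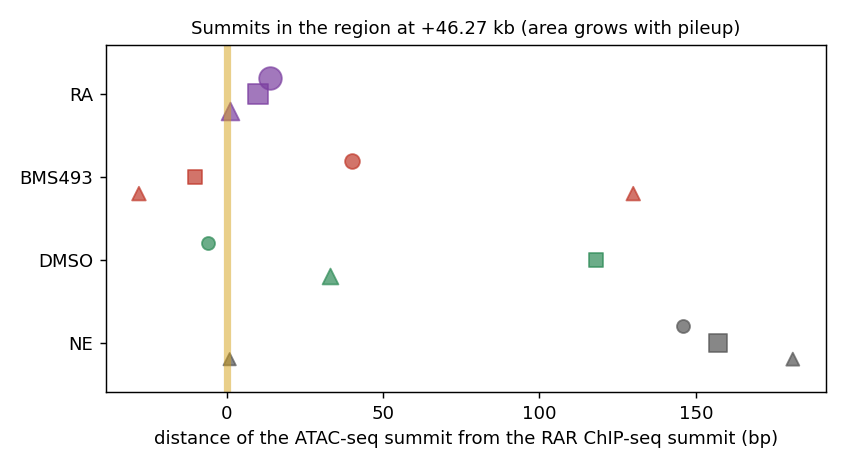
Distance of each ATAC-seq summit at +46.27 kb from the RAR ChIP-seq summit (x axis, bp, 0 at the yellow line) by condition (y axis), with a symbol per replicate and an area that grows with the pileup. The 3 RA summits lie within 14 bp of the line, and those of the other conditions spread up to 181 bp.

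The proximal RAR site fell in the region at -7.07 kb (chromosome 17, 41572453 to 41572720), with which it shared 224 bp. Only RA replicates 1 and 2 called it, at ranks of 67.4 and 65.3, pileups of 16 and 14 tags and fold enrichments of 6.75 and 5.79. RA replicate 3 and all 9 other samples had no peak there. Regions called in 2 or 3 RA samples and in no other sample made up 1.12% of all regions, and this was the only member among them. With calls in 2 samples it did not enter the test. When regions of every call count were fitted, RA exceeded DMSO there by 44.2 with a limma adjusted p of 0.679. In that fit 0 of 245646 regions passed as higher in RA than in DMSO, so that this p says little about the region. Its summits lay 6 and 37 bp from that of the RAR site. RA replicate 3 had the shortest of the 3 RA lists, and its signal at this site is not known.

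The study assigned 2 further RAR sites to insm1b, beyond the window. The region at +70.44 kb was called in all 12 samples at ranks of 93.5 to 99.6, with means of 96.2 in RA endoderm, 96.3 in BMS493 endoderm, 97.1 in DMSO endoderm and 98.9 in NE cells. The region at +119.03 kb had ranks of 75.6, 72.6 and 51.8 in RA samples, 35.0, 10.3 and 23.4 in BMS493 samples and 0, 51.9 and 33.3 in DMSO samples, and no NE sample called it. Here RA lay above BMS493 without overlap, whereas DMSO replicate 2 reached the lowest RA sample. The limma adjusted p was 0.33 for RA against BMS493 and 0.64 for RA against DMSO. The ranks at +70.44 kb lie close to the upper end of the scale, which leaves little room for a difference. Its pileup was 45, 38 and 27 tags in RA samples, 29, 47 and 29 in BMS493 samples, 25, 41 and 46 in DMSO samples and 41, 63 and 39 in NE samples, and all conditions overlapped.

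Over the 17 members tested, no region passed the limma threshold between RA and DMSO in either direction. Of all regions tested, 0.194% were higher and 0.0362% lower in RA. The study compared read densities and named insm1b among genes with RA-induced ATAC-seq peaks at RAR sites. Its supplementary list of RA-affected peaks was selected by RA against BMS493, not against DMSO. With lists of equal length, the region at +46.27 kb passed against DMSO (limma adjusted p = 0.0188) and against BMS493 (limma adjusted p = 0.0154). In the main setting the present ranks gave no such call in either comparison, and why was not tested. At an unadjusted p under 0.05, 1 member was higher in RA, at +46.27 kb, and 0 were lower, where the shares were 4.44% and 2.54%. It was also the only member whose RA ranks all lay above the DMSO ranks, as they did in 5.27% of regions, and in no member did they all lie below, as in 1.97%. By presence, 0 members were called in all RA and no DMSO sample, and 0 the other way round, where the shares of all regions were 0.963% and 0.357%. The median difference of mean ranks was -1.77 over the 17 members, 6 of them positive, and 0 over all regions tested, 49.8% of them positive.

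Between RA and BMS493, likewise, 0 members passed in either direction, where 0.625% of all regions tested were higher and 0.131% lower in RA. At an unadjusted p under 0.05, 2 members were higher in RA, at +0.02 and +46.27 kb, and 0 were lower, where the shares were 5.64% and 3.47%. The same 2 members had RA ranks that all lay above the BMS493 ranks, which held for 7.51% of regions, and 0 had RA ranks all below, as in 4.48%. By presence, 0 members were called in all samples of one condition and none of the other, where the shares were 1.75% for RA and 0.83% for BMS493. The median difference was 5.47 over the 17 members, 9 of them positive, against 0.0558 over all regions, 50.4% of them positive.

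No member separated BMS493 from DMSO. In limma, 0 members passed in either direction, where 0.0% of all regions tested were higher and 0.000787% lower in BMS493. At an unadjusted p under 0.05 there were 0 as well, where the shares were 0.786% higher and 0.989% lower. No member had ranks without overlap, where BMS493 lay above DMSO in 1.23% of regions and below it in 1.15%, and by presence 0 members differed, where the shares were 0.153% for BMS493 and 0.161% for DMSO. The median difference was -1.37 over the 17 members, 4 of them positive, and 0 over all regions tested, 46.0% of them positive. Any pair of these 3 comparisons shares the samples of a condition, so that they are not independent.

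Among the 4 comparisons, members passed the limma threshold only between DMSO endoderm and NE cells. Of the 17 members tested, 2 were higher in DMSO endoderm, at -18.49 and +43.52 kb, where 2.16% of all regions tested were higher. A further 3 were lower in DMSO endoderm, at +18.20, +24.34 and +41.24 kb, where the share was 4.91%. The region at +41.24 kb entered the test only through its NE calls, and that at -18.49 kb only through its endodermal calls. At an unadjusted p under 0.05 there were 3 in each direction, the promoter region being added to the higher ones, where the shares were 5.86% higher and 12.5% lower. The DMSO ranks all lay above the NE ranks in the same 3 members, as they did in 4.68% of regions, and all below in the 3 lower ones, as in 13.1%. Regions of both directions lay downstream of insm1b, where those at +41.24 and +43.52 kb are neighbours.

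The region at +43.52 kb (chromosome 17, 41622965 to 41623392) had the highest mean rank in RA, BMS493 and DMSO endoderm of the members downstream of the gene. Its ranks were 87.4, 94.0 and 92.9 in DMSO endoderm and 51.1, 54.6 and 65.4 in NE cells, a difference of 34.4 (SE 5.30, limma adjusted p = 0.00104). The RA samples stood at 97.4, 93.7 and 96.4 and the BMS493 samples at 86.6, 95.7 and 88.8. All 9 endodermal samples lay above all 3 NE samples, and the 3 endodermal conditions overlapped. In pileup it had 44, 30 and 32 tags in RA samples, 21, 36 and 22 in BMS493 samples, 19, 31 and 29 in DMSO samples and 11, 14 and 11 in NE samples. The call held when each of the 12 samples was left out in turn, with differences of 31.4 to 38.6. It was lost when peaks had to cover 50% of the region (limma adjusted p = 0.376).

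The region at -18.49 kb (chromosome 17, 41561012 to 41561323) had a peak in each of the 9 endodermal samples and none in NE cells, a pattern of 0.443% of all regions. Its ranks were 49.6, 80.8 and 69.2 in DMSO endoderm, against 0 in all 3 NE samples, a difference of 66.5 (SE 17.1, limma adjusted p = 0.0222). They were 63.9, 49.2 and 12.3 in RA endoderm and 52.6, 84.8 and 58.4 in BMS493 endoderm. The RA samples included the lowest of the 9, and the difference of -24.7 between RA and DMSO had an SE of 17.1 (limma adjusted p = 0.926). It was also the only member called in all DMSO and no NE sample, as were 1.1% of regions. The limma call was lost without DMSO replicate 2 or 3 or without any 1 NE sample (adjusted p of 0.0643 to 0.107). It was also lost where peaks had to cover 50% of their region (limma adjusted p = 0.0622). The region at -18.49 kb entered the test only through its endodermal calls. With regions of every call count in the fit, it passed (limma adjusted p = 0.0393).

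The region at +24.34 kb (chromosome 17, 41603812 to 41604174) showed the reverse. It ranked at 0, 10.4 and 3.72 in DMSO endoderm and at 89.0, 91.8 and 92.5 in NE cells, a difference of -86.4 (SE 13.5, limma adjusted p = 0.00111). RA replicate 1 and BMS493 replicate 3 called it at 3.18 and 12.3, and the other RA and BMS493 samples did not. In the 4 endodermal samples that called it the pileup was 6 or 7 tags, close to the lowest in their lists, against 23, 33 and 24 tags in NE samples. The call held without each of the 12 samples, with differences of -89.2 to -84.0, and was lost on log2 pileup scaled by the tags of each sample (limma adjusted p = 0.232).

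The region at +18.20 kb (chromosome 17, 41597678 to 41598042) was present in most endodermal samples but lower there. Its ranks were 19.9, 0 and 34.6 in RA endoderm, 12.5, 51.3 and 43.7 in BMS493 endoderm, 0, 29.9 and 33.2 in DMSO endoderm and 84.5, 87.4 and 82.1 in NE cells. All NE samples lay above all endodermal samples, as they did at +24.34 kb and in 8.51% of the regions tested. The difference between DMSO and NE was -63.6 (SE 16.8, limma adjusted p = 0.0261). It no longer passed without DMSO replicate 1 or 2 or without any 1 of the NE samples, with adjusted p of 0.0593 to 0.119.

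The region at +41.24 kb (chromosome 17, 41620681 to 41621123) lies only a short way from that at +43.52 kb, which ranked higher in endoderm. It was called in all 3 NE samples, at ranks of 51.1, 69.6 and 32.3, and in no DMSO or BMS493 sample. RA replicate 1 called it at 50.5. The difference between DMSO and NE was -51.0 (SE 15.1, limma adjusted p = 0.0485), just inside the threshold, and it passed only without RA replicate 1 or NE replicate 3 when samples were left out in turn. The adjusted p without each of the other 10 samples was 0.0583 to 0.184. The region entered the test through its NE calls, and with regions of every call count in the fit it did not pass (limma adjusted p = 0.103). It was the only member called in all NE and no DMSO sample, as were 2.82% of regions.

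**Figure D4:**
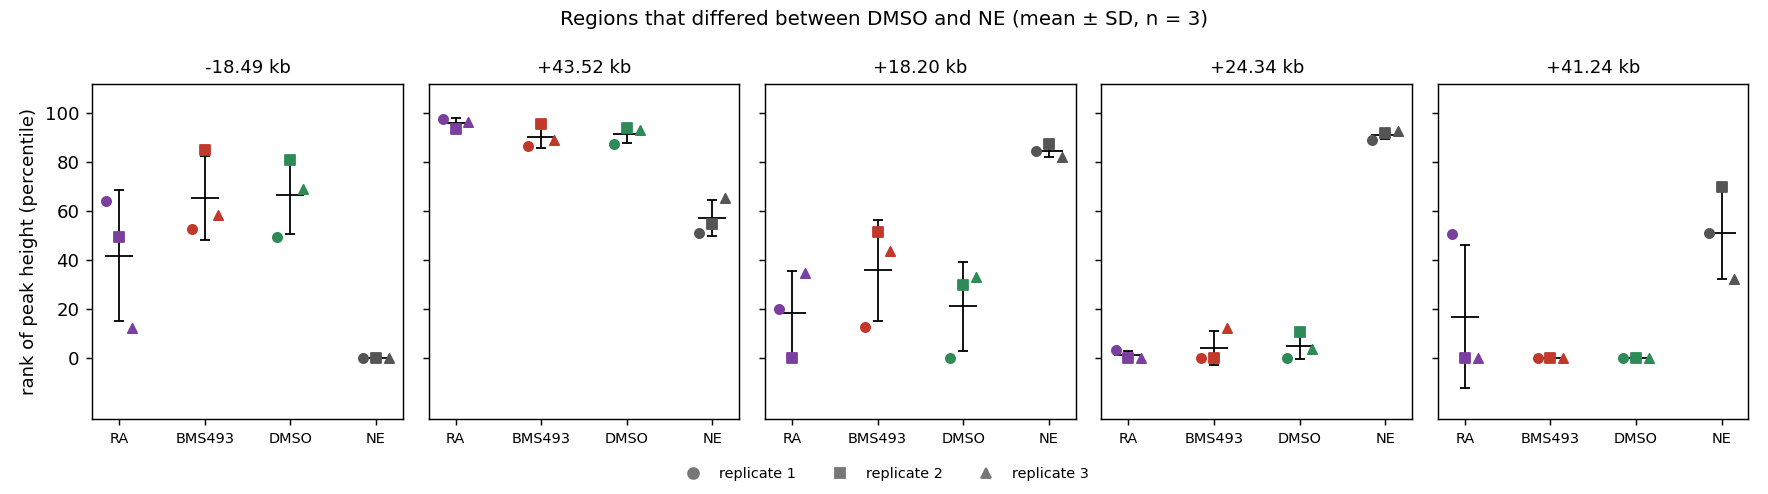
Percentile rank of peak height (y axis) in each sample, by condition (x axis), at the 5 regions that passed the limma threshold between DMSO and NE. Symbols are replicates, and the horizontal mark and bars are the mean ± SD of 3 samples. The first 2 panels show regions higher in DMSO endoderm and the other 3 regions lower in it. At +24.34 kb all 9 endodermal samples sit at 12.3 or lower, and at +41.24 kb RA replicate 1, at 50.5, is the only endodermal sample above 0. The latter region entered the test only through its NE calls, and that at -18.49 kb only through its endodermal calls.

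The remaining regions called in all 12 samples showed little order by condition. The region at -34.80 kb (chromosome 17, 41544578 to 41545139) had ranks of 87.0, 55.5 and 68.6 in RA samples, 81.1, 72.0 and 58.4 in BMS493 samples, 64.5, 78.5 and 72.6 in DMSO samples and 75.0, 82.3 and 73.8 in NE samples, with the lowest mean of 70.4 in RA endoderm and the highest of 77.0 in NE cells. The region at +49.75 kb (chromosome 17, 41629219 to 41629598) had ranks of 77.8, 69.2 and 44.0 in RA samples, 44.7, 68.8 and 34.2 in BMS493 samples, 74.0, 66.3 and 72.6 in DMSO samples and 57.6, 72.3 and 65.4 in NE samples. The groups overlapped at both. At +49.75 kb, DMSO replicates 1 and 3 ranked above all BMS493 samples, with a difference between BMS493 and DMSO of -21.7 (SE 12.8, limma adjusted p = 1.0).

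The region at +7.33 kb (chromosome 17, 41586822 to 41587153) was called in all samples but varied widely within 3 of the conditions. Its ranks were 73.2, 65.3 and 44.0 in RA samples, 12.5, 56.5 and 43.7 in BMS493 samples, 14.3, 57.4 and 65.3 in DMSO samples and 12.1, 63.1 and 6.58 in NE samples. The means were 60.8 ± 15.1 in RA endoderm, 37.6 ± 22.6 in BMS493 endoderm, 45.6 ± 27.5 in DMSO endoderm and 27.2 ± 31.2 in NE cells (SD, n = 3 each), and no difference passed the threshold. Replicate 1 was the lowest of its condition in BMS493 and DMSO, and replicate 3 in RA and NE.

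Farther upstream lay a group of regions called in 3 to 11 samples. The region at -14.55 kb was called in all samples but RA replicate 3, with mean ranks of 37.6 in RA endoderm, 50.2 in BMS493 endoderm, 59.1 in DMSO endoderm and 76.5 in NE cells, where the NE samples lay close together at 74.8 to 79.8. The region at -22.46 kb was called in 2 RA, 3 BMS493 and 2 DMSO samples and in no NE sample, at ranks of 3.85 to 67.4. Those at -26.98, -22.93 and -19.92 kb were called in 3, 6 and 5 samples, without a condition in which every sample called them. None of these passed the threshold in any of the 4 comparisons.

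The other regions called in 1 or 2 samples ranked low, at 3.83 to 36.2 outside the gene body and the RAR site. Those at +30.85 and +34.46 kb were called in NE replicates 1 and 2 alone. Those at -41.25, -27.91 and +11.11 kb were called in NE replicate 3 alone, each with 5 tags. At the edges of the window, the regions next outside it lay at -58.85 and +53.19 kb and were called in all 12 samples, at ranks of 91.7 to 99.1 and 72.5 to 99.0. The first and last regions inside the window ranked at 0 to 6.58 and 34.2 to 77.8.

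Finally, the pattern of the promoter over the 12 samples was set beside that of other genes. Of the 151 other genes that the study lists with a RAR site and RA-regulated expression, 127 had a region within 1 kb of the TSS. Genes raised and genes lowered by RA were pooled here. The ranks of these regions had a median Pearson correlation of 0.257 with those of the insm1b promoter, from -0.715 to 0.902. The 5 highest were rnd1 (0.902), hnf1ba (0.856), zgc:194189 (0.811), pcdh10b (0.787) and ppm1h (0.786). hnf1ba codes for a homeobox transcription factor of the gut and kidney, pcdh10b for a protocadherin and ppm1h for a protein phosphatase. At hnf1ba the mean rank was 98.9 in RA endoderm, 96.4 in BMS493 endoderm, 96.6 in DMSO endoderm and 86.2 in NE cells. At pcdh10b it was 98.3, 97.6, 98.4 and 96.6 in the same order, close to the upper end of the scale and not higher in RA than in DMSO. The points share libraries, and their spread holds the differences in list length as well as those between conditions. Within the locus, the correlation with the promoter was 0.823 at +43.52 kb, 0.778 at +7.33 kb, 0.685 at -2.15 kb, 0.447 at +46.27 kb, 0.0878 at +49.75 kb and -0.16 at -34.80 kb.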

How the data were processed

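Conditions and replicate numbers follow the labels, from which the headers of the NE lists deviate in number. The authors aligned reads to Zv9 with Bowtie2 and called peaks in single samples by MACS2 2.1.1.20160309 with no control (q-value under 0.05, shift of 40 bp, extension to 80 bp, no more than 1 tag kept per position and strand). As deposited, the pileup is an unscaled signal. The fold enrichment that the authors deposited is a ratio to the local background of that sample, and they gave p-values and q-values as -log10 in the deposited lists. Depths are those of the headers.

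Peaks were merged with Python 3.11.15, numpy 2.4.6 and pandas 2.3.3, and the number of regions was checked against bedtools 2.31.1. The rank of the tallest peak in each region was compared with limma 3.58.1 in R 4.3.3 (trend and robust options, all 12 samples, regions called in at least 3), and exact permutation tests used scipy 1.17.1. The study itself compared read densities, which the lists do not hold. Regions given with all values were those at the gene or within 1 kb of the TSS, at RAR sites, called in all 12 samples, past the limma threshold, or called in all samples of one condition and none of another. The regions and lists were chosen with earlier results of these data known. Sequences and motifs were not analysed here.

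Simulated data were used to test the steps. In the first simulation, with gains of moderate height and many regions near the calling threshold, limma called none of the gained regions after adjustment, although nearly all had a low unadjusted p. A second simulation, set up after that failure with taller gains and fewer regions near the threshold, recovered nearly all. The limma settings were the same in both. As gain height and the number of such regions changed together, their parts cannot be told apart. The pass holds for the second setting only, and a count of 0 calls here does not show that no member changed.

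The alternatives tried were lists of equal length, a stricter -log10(q) of 3, merging across gaps of 100 bp, and leaving out scaffolds beyond chromosomes 1 to 25. Another counted a call only where the peaks of a sample together covered 50% of the region. Fits also used regions of every call count, ranks of -log10(q), or log2 pileup scaled by the tags of each sample (pseudocount of 0.1). The replicate number was also used as a block, and each sample was left out in turn.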

Additional observations from a re-analysis of the deposited data

How the results depend on the processing

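With lists of equal length, 17 regions instead of 30 lay in the window, against 26 to 31 when samples were left out in turn. There, 1 member each passed the limma threshold as higher in RA than in DMSO and than in BMS493 (0 in the main analysis of both), 4 instead of 2 were higher in DMSO than in NE, and 2 instead of 1 were called in all NE and no DMSO sample. Of the 67438 regions tested with such lists, 1062 were higher in RA than in DMSO and 1702 higher in RA than in BMS493. A further count, 4508, was higher in DMSO than in NE, against 2748 of 127026 in the main fit. Where peaks had to cover 50% of their region, 0 members were higher and 1 lower in DMSO than in NE. Of the 98522 regions tested in that fit, 1280 were higher and 4475 lower in DMSO. In this setting 1 member, the promoter region, was called in all RA and no DMSO sample. Its difference between DMSO and NE was -24.9 (limma adjusted p = 0.706), with a call only in NE replicate 2 among these samples. Members lower in DMSO than in NE numbered 1 without the filter on samples and 0 on log2 pileup scaled by tags. Among all regions tested, 3915 of 245646 were lower without the filter and 4644 of 127026 on log2 pileup. Shares of all regions by presence were not computed for the alternatives. The causes of these changes were not tested.

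When samples were left out in turn, the members past the limma threshold between DMSO and NE numbered 1 to 3 in each direction, and 0 in either direction for each of the other 3 comparisons. Of the 115844 to 126517 regions tested in these fits, DMSO was higher than NE in 1437 to 5337 and lower in 1901 to 5725. RA was higher than DMSO in 0 to 93 and lower in 1 to 239. It was higher than BMS493 in 1 to 1333 and lower in 1 to 498. BMS493 was higher than DMSO in 0 to 5 and lower in 0 to 7. Where so few regions passed, a count of 0 members says little about the locus. Members called in all DMSO and no NE sample numbered 1 to 3, as did the reverse. Each 3 came without a sample of the called condition (DMSO replicate 1, NE replicate 3), an easier rule in all regions. In the other 3 comparisons such members numbered 0 or 1 each way. Without shares, no locus effect is read from these counts.

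The regions followed one by one were picked after their values were seen. Of 21 alternatives, the DMSO against NE call was lost in 16 at +41.24 kb (with lists of equal length because too few samples called it to be tested), in 9 at +18.20 kb, in 6 at -18.49 kb and in 1 each at +24.34 and +43.52 kb. At +46.27 kb the RA differences passed only with lists of equal length, and the limma adjusted p over the alternatives was 0.0188 to 0.873 against DMSO and 0.0154 to 0.975 against BMS493. In several of the other settings few regions passed anywhere. With the replicate block, without the filter on samples and on log2 pileup, 0 regions were higher in RA than in DMSO, against 246 in the main fit. Those higher in RA than in BMS493 numbered 379, 173 and 9, against 794. The promoter difference between RA and BMS493 passed in none of the 21 alternatives, with limma adjusted p of 0.217 to 0.892. In no comparison did every same-numbered pair of samples deviate together with a correlation over 0.1 (range -0.154 to 0.206). The numbers were therefore not taken as pairs. NE numbers here and in the replicate block follow the labels, and a pairing by the headers was not tested. In BMS493 against DMSO, numbers 1 and 2 correlated best with their own number. With the replicate block, the call at +41.24 kb was lost (difference of -51.0, adjusted p = 0.0551), and no other call at the locus changed. Signal under the calling threshold, and differences smaller than the spread of 3 samples, are beyond these lists.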
